A study of Mus musculus with 11 samples.

Results

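Effector regulatory CD4 T cells of the lacrimal gland were set against naïve CD4 T cells of the same gland, gene by gene. The comparison used 6 of the 11 arrays of the study, chosen by their titles: 3 of effector regulatory cells (LG_eTreg) and 3 of naïve cells (LG_naïve). All cells came from male NOD mice of 16 weeks with no treatment named, a strain in which lymphocytes infiltrate the lacrimal gland and which is used to model Sjögren's syndrome. Cells of both groups were sorted as live cells with surface CD4 and T cell receptor β. LG_naïve lacked PD1 and ICOS, whereas LG_eTreg was high for PD1 and ICOS and low for CD73 and CD200. The third gland subset, effector conventional cells (LG_eTconv, 3 arrays), is described in the study with exactly the gate of LG_eTreg, so the labels do not say what separated these subsets. Total splenic CD4 and CD8 T cells of the same mice were measured on 1 array each. Whether the 3 arrays of a group stand for different mice or for pooled mice is not stated, so p-values measure only how far these samples spread, and that spread may be technical.

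Regulatory T cells restrain immune responses and are defined by the transcription factor Foxp3. Once activated in a tissue they can become effector regulatory cells, which take up the transcription factor Prdm1, secrete interleukin 10 and carry receptors for inflamed or epithelial sites. Naïve T cells have not yet met their antigen, circulate between blood and lymph nodes, and keep genes of quiescence such as Klf2, Lef1 and Bach2 active.

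Values are log2 signals (the base is inferred from the authors' method), so a difference of 1 is a doubling, and levels are compared between groups for 1 probe set at a time, never between genes. A difference is LG_eTreg minus LG_naïve, with its standard error (SE), from a limma fit over the 9 gland arrays, with p-values adjusted by Benjamini-Hochberg over 17097 genes; adjusted p under 0.05 counts as a call. Each array has a background limit, its highest nonspecific control, of 0.945 to 1.70. Between 9483 genes (55.5%, LG_naïve 1) and 11211 genes (65.6%, LG_eTreg 2) lay above it. LG_naïve 1 and LG_eTreg 3 had the highest 18S ribosomal RNA control signals, at 6.63 and 6.69 against 4.34 to 5.68 elsewhere. Over genes, which are no replicates, pairs of arrays correlated at 0.980 to 0.989 within a group and 0.948 to 0.960 between the groups.

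The labelled identities were checked against their markers first. Cd4 was at 8.44, 8.40 and 8.45 on the LG_naïve arrays and at 8.35, 8.45 and 8.48 on the LG_eTreg arrays, a difference of -0.00 (SE 0.09, adjusted p = 0.987, limma). Cd3e, a chain of the T cell receptor complex, differed by 0.22 (adjusted p = 0.455). The gate genes followed the sort for Pdcd1, which encodes PD1 (difference 5.63), and Icos (1.22), and this is no finding. Cd200 (2.51) and Nt5e, which encodes CD73 (3.42), were higher in LG_eTreg, although its gate was low for both proteins. The probe sets of Nt5e disagreed, from -0.06 to 3.42.

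Foxp3 and the genes of regulatory identity stood at a high and even level in LG_eTreg and at a lower, more scattered level in LG_naïve. Of 23 measured identity genes 22 rose, 0 fell and 1 did not pass, with a median difference of 3.20. Among all genes tested 1995 were called (11.7%), 1060 higher (6.2%) and 935 lower (5.47%), and the median difference was -0.02. The list was chosen with earlier results of these data known and its direction is a description.

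The transcription factors of the list were led by Foxp3, at 2.86, 4.04 and 4.95 in LG_naïve and 8.21, 8.13 and 8.21 in LG_eTreg. The groups did not overlap, and the LG_naïve arrays were far more scattered (SD 1.04) than the LG_eTreg arrays (SD 0.05). The difference was 4.23 (SE 0.49, adjusted p = 0.000752, limma), a fold of 18.8, and Foxp3 was also higher than in LG_eTconv by 3.94 (adjusted p = 0.0021). Ikzf4, which encodes the Foxp3 partner Eos, went from 2.81, 3.03 and 2.68 to 6.56, 6.67 and 6.72. Prdm1, which encodes Blimp-1, the factor of effector differentiation, went from 3.95, 4.36 and 4.54 to 8.04, 8.13 and 8.03. Both were higher in LG_eTreg than in LG_eTconv as well, by 2.53 (adjusted p = 1.3e-05) and 3.52 (adjusted p = 0.00013). Ikzf2, which encodes Helios, rose by 3.72 (SE 0.29), from 5.19, 5.81 and 5.68 to 9.35, 9.37 and 9.11, and its difference from LG_eTconv of 1.02 did not pass (adjusted p = 0.096). Plagl1 was the 1 identity gene that did not pass, at 3.61, 5.20 and 5.51 against 6.16, 6.33 and 6.32 (difference 1.5, adjusted p = 0.056). It passed without LG_naïve 1 or without LG_naïve 3.

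In these bulk samples, fewer cells of a type and less RNA per cell cannot be told apart, and this holds for every gene here.

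Receptors through which regulatory cells sense interleukin 2 and restrain other cells rose with the transcription factors. Il2ra, the high-affinity chain of the interleukin 2 receptor (CD25), was at 4.34, 4.79 and 4.60 in LG_naïve and 7.01, 7.28 and 7.17 in LG_eTreg. Its difference of 2.58 (SE 0.16) was accompanied by 2.03 over LG_eTconv (adjusted p = 0.00014). Il2rb, the signalling chain shared with the interleukin 15 receptor, rose by 3.20 and was not called against LG_eTconv (0.56, adjusted p = 0.079). Ctla4, which withdraws costimulation from antigen presenting cells, was at 8.38, 8.12 and 8.42 against 10.19, 10.26 and 10.32. It was not called against LG_eTconv (0.29 over LG_eTconv, adjusted p = 0.27). Klrg1, a receptor for cadherins carried by late effector cells, was below background on all LG_naïve arrays and at 3.65, 3.65 and 3.34 in LG_eTreg, at least 4.30-fold higher. Such a bound sets the measured mean against the background limits of the dim group. It holds for the brightest probe set, which stands for the gene, and not for its other probe sets. Klrg1 was below background on all LG_eTconv arrays too, and LG_eTreg was at least 4.62-fold higher (adjusted p = 8.8e-06).

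Genes that place regulatory cells at epithelia showed some of the widest gaps. Itgae, the αE integrin chain (CD103) that binds E-cadherin of epithelial cells, was at 1.86, 2.50 and 2.57 in LG_naïve and 7.66, 7.81 and 7.63 in LG_eTreg. The difference was 5.39 (SE 0.28, adjusted p = 8.74e-06, limma), and LG_eTreg exceeded LG_eTconv by 4.21. Ccr8, a chemokine receptor of tissue regulatory cells, lay below background on every LG_naïve array and at 6.80, 6.36 and 6.50 in LG_eTreg, at least 34.5-fold higher. Unlike Itgae, Ccr8 was also high in LG_eTconv, with a mean of 6.10, and the subsets were not called different (0.45, adjusted p = 0.35). Against LG_eTconv, 974 of all genes were called (5.7%), 502 higher in LG_eTreg (2.94%) and 472 lower (2.76%). Of the 23 identity genes 11 were higher than in LG_eTconv and 0 lower.

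Secreted and surface mediators of suppression formed the second block. Of 17 measured suppressor and repair genes 12 rose, 1 fell and 4 did not pass (median difference 1.76). Il10, the cytokine that dampens macrophage and dendritic cell activation, had the widest rise of any gene with a usable name: 1.39, 1.46 and 1.61 in LG_naïve against 8.80, 9.11 and 9.03 in LG_eTreg. The difference was 7.49 (SE 0.12, adjusted p = 4.66e-08), and it was 3.73 over LG_eTconv. Gzmb, the cytotoxic protease granzyme B, was below background on all LG_naïve arrays and at 5.26, 5.94 and 5.93 in LG_eTreg, at least 19.3-fold higher. In LG_eTconv it was above background on 1 of 3 arrays, with a mean of 0.96, and LG_eTreg was called higher (adjusted p = 6.7e-06). Fgl2, a secreted fibrinogen-like protein of regulatory cells, went from 3.12, 3.30 and 3.44 to 6.35, 7.18 and 6.66, and exceeded LG_eTconv by 3.86. Il1r2, the decoy receptor that takes up interleukin 1, went from 0.69, 1.46 and 0.73 to 5.45, 5.26 and 5.63 (4.48, SE 0.24).

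Other mediators differed in whether they also exceeded LG_eTconv. Penk, which encodes the opioid precursor proenkephalin, was at 0.80, 0.85 and 1.87 against 6.86, 6.55 and 6.55 (5.48, SE 0.28), and was not called against LG_eTconv (mean 7.70, adjusted p = 0.074). Ebi3, a subunit of interleukins 27 and 35, rose by 2.70 (SE 0.31) and differed from LG_eTconv by -0.34 (adjusted p = 0.72). Entpd1, the ectoenzyme CD39 that degrades extracellular ATP, rose by 2.43 and was higher than in LG_eTconv by 1.0 (adjusted p = 0.014). Lgals1, which encodes galectin-1, rose by 1.87. Tgfb1 stood at 2.54, 2.85 and 3.35 against 3.81, 3.70 and 3.58, a difference of 0.78 that did not pass (adjusted p = 0.0642) and that passed without LG_naïve 3. Vegfa, the vascular growth factor, was the member that fell, at least 2.34-fold. Its call ended with values at the background limit (adjusted p = 0.163).

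**Figure D1:**
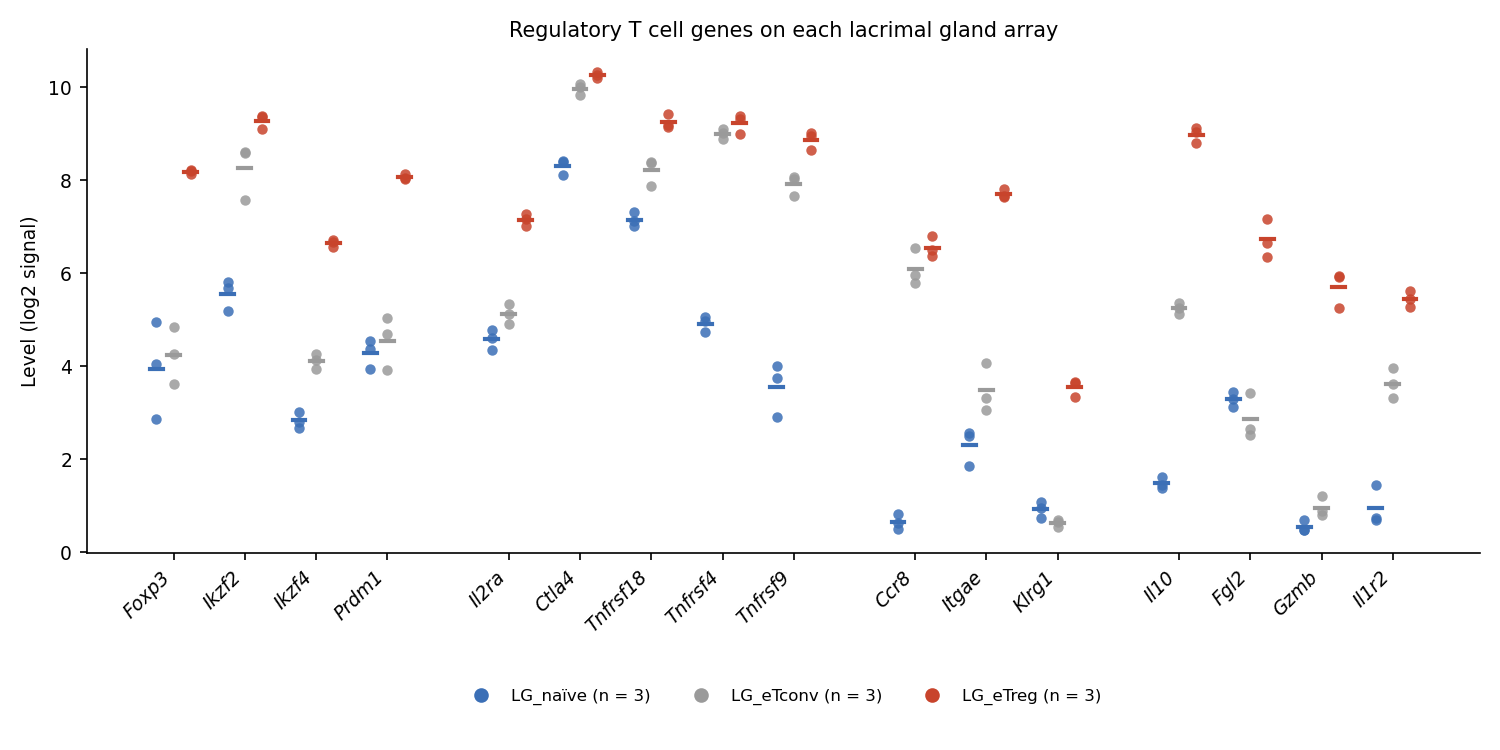
Log2 signal of regulatory identity and suppressor genes on each gland array; each point is 1 array, with LG_naïve, LG_eTconv and LG_eTreg as separate groups of 3. Bars are group means. Foxp3, Il10, Itgae, Gzmb, Prdm1 and Ikzf4 are highest on the LG_eTreg arrays, whereas Ccr8 has means of 6.55 in LG_eTreg and 6.10 in LG_eTconv.

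Across the genome the comparison was broad. Of the 1995 called genes 1288 differed at least 2-fold (706 higher, 582 lower), and 140 rose and 90 fell at least 8-fold. In every called gene the 3 arrays of each group did not overlap, a pattern that 4636 of all genes showed (27.1%). For 129 of the genes that rose, all LG_naïve arrays lay below background, and for 111 of the genes that fell, all LG_eTreg arrays did. Of the 1060 higher genes 234 were also higher than in LG_eTconv, 81 were lower than in LG_eTconv and 745 were not called in that test. Of the 935 lower genes 121 were lower than in LG_eTconv, 40 higher and 774 not called. The comparisons share the LG_eTreg arrays.

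**Figure D2:**
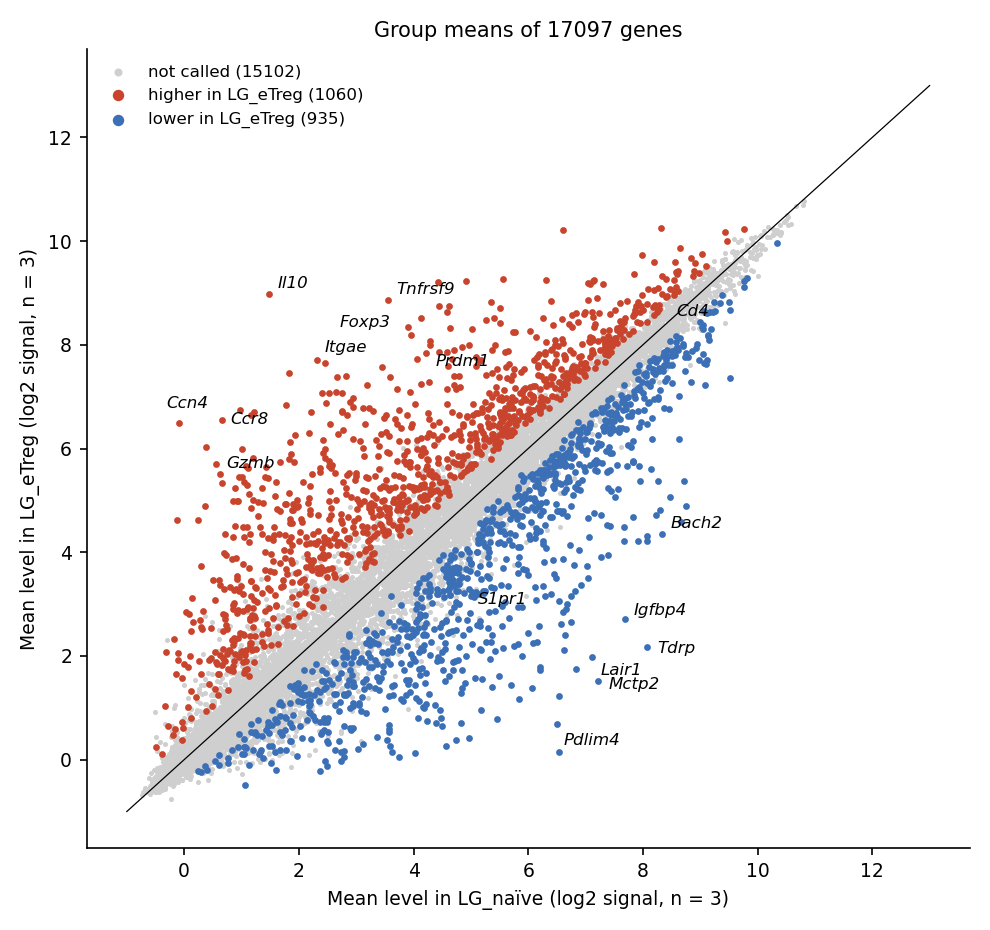
Mean log2 signal of each of 17097 genes in LG_naïve (x axis) and LG_eTreg (y axis), 3 arrays a group, with 1060 genes called higher in red, 935 called lower in blue and genes not called in grey. Il10, Ccn4 and Ccr8 lie farthest above the diagonal line of equal means among the labelled genes, and Tdrp, Pdlim4 and Mctp2 farthest below.

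Several of the largest rises lay outside the regulatory lists. Ccn4, a secreted matricellular protein induced by Wnt signals, was below background in LG_naïve and at 6.18, 6.75 and 6.58 in LG_eTreg, at least 33.3-fold higher, and it was higher still in LG_eTconv (mean 7.73, adjusted p = 0.0089). Sema6d, a transmembrane semaphorin, was at 6.51, 7.06 and 6.64, at least 39.2-fold higher than LG_naïve and 1.72 above LG_eTconv (adjusted p = 0.0026). Its 4 probe sets ranged from 0.05 to 5.76.
Arnt2, a partner of bHLH-PAS transcription factors, was at 6.52, 6.13 and 5.43 against 0.54, 0.36 and 0.22, all below background, and so at least 24.02-fold higher. It was called higher than in LG_eTconv (adjusted p = 0.00014), where 2 of 3 arrays were above background. Nxpe4 stood at 6.09, 6.12 and 5.75 in LG_eTreg and below background in LG_naïve (at least 23.4-fold). It was called higher than in LG_eTconv (adjusted p = 1.9e-06), where 1 of 3 arrays was above background. Arnt2 and Nxpe4 were thus higher in LG_eTreg than in both other gland subsets.
Zan was at 6.55, 6.43 and 7.15 against 0.88, 1.46 and 1.30, and was not called against LG_eTconv (0.00). Ptger2, the EP2 receptor for prostaglandin E2, was at 2.20, 2.92 and 2.28 against 7.34, 7.88 and 7.72, and was not called against LG_eTconv (-0.79, adjusted p = 0.13). Cass4, an adhesion scaffold, rose by 5.05 (SE 0.19), Slc24a3, a sodium-calcium exchanger, at least 9.11-fold, and Osbpl3, an oxysterol binding protein, by 4.66 (SE 0.30). Morrbid, a long noncoding RNA next to Bcl2l11, went from 2.45, 1.84 and 3.72 to 7.79, 6.83 and 7.51, and exceeded LG_eTconv by 2.24 (adjusted p = 0.034). Spry1, a brake on receptor tyrosine kinase signals, rose by 4.55 (SE 0.32).

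Genes of effector helper programs were examined next. Of 22 measured T helper 1 and cytotoxic genes 13 rose, 0 fell and 9 did not pass (median 1.8). Tbx21, which encodes T-bet, the master factor of this program, was at 2.97, 3.07 and 2.23 in LG_naïve and 6.70, 6.94 and 7.57 in LG_eTreg (4.31, SE 0.30, adjusted p = 4.86e-05). Ifng, which encodes interferon gamma, went from 4.70, 4.45 and 4.17 to 8.57, 8.97 and 8.71 (4.31, SE 0.16). Neither was called different from LG_eTconv (Tbx21 0.62, adjusted p = 0.37; Ifng -0.62, adjusted p = 0.063).
Cxcr3, the receptor for interferon-induced chemokines, went from 5.49, 3.85 and 4.54 to 8.52, 8.67 and 9.05. Cxcl10, 1 of its ligands, rose by 3.02 (SE 0.26) from 4.38, 5.25 and 5.27 to 7.70, 8.06 and 8.21. Ligand and receptor thus both rose in LG_eTreg, and neither was called against LG_eTconv.
Cxcr6, a receptor of tissue-homing effector cells, rose by 4.43, Nkg7, a protein of cytotoxic granules, by 4.79, and Ccl5, a chemokine stored in such granules, by 2.95. Ccl5 stood at 6.24, 6.25 and 6.43 in LG_naïve, a like mean of 6.34 in LG_eTconv, and 9.28, 9.17 and 9.30 in LG_eTreg (2.91 over LG_eTconv, adjusted p = 1e-05). Stat4 and Fasl were not called (0.01 and -0.14), while both were lower than in LG_eTconv, by 0.96 and 1.0 on the log2 scale.

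Of 19 effector transcription factors 11 rose, 1 fell and 7 did not pass (median 1.60). Maf, a driver of Il10 and Il21 transcription, went from 3.31, 3.44 and 2.60 to 6.43, 7.19 and 6.71. Ahr, the aryl hydrocarbon receptor, rose by 3.67 (SE 0.41) and Rora, an orphan nuclear receptor, by 2.68 (SE 0.27). None of these was called against LG_eTconv (adjusted p = 0.59, 0.68 and 0.067).
Epas1, a hypoxia-inducible factor, was the member that fell, from 6.16, 6.07 and 5.75 to 2.45, 3.47 and 1.38 (-3.56, SE 0.49). Irf4 was not called, at 9.23, 9.12 and 9.08 against 9.09, 9.36 and 9.20 (0.07, adjusted p = 0.776). Batf, its partner factor, was at 5.17, 4.26 and 3.82 against 5.47, 5.80 and 7.05, with no overlap but no call (1.69, adjusted p = 0.0593), and it passed without LG_naïve 1. Gata3 did not pass (0.73, adjusted p = 0.278).

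Follicular helper genes, which serve help to B cells, split in LG_eTreg. Of 17 measured, 6 rose, 2 fell and 9 did not pass, with a median of 0.11, and against LG_eTconv 0 were higher and 9 lower. Il21, the cytokine of B cell help, was at 0.89, 1.27 and 1.18 in LG_naïve and 5.73, 5.59 and 5.54 in LG_eTreg (4.50, SE 0.14, adjusted p = 1.6e-06), and at a mean of 8.52 in LG_eTconv, 2.90 above LG_eTreg. Sostdc1, an antagonist of BMP and Wnt signals, rose at least 3.76-fold to 3.59, 3.60 and 2.86, while LG_eTconv stood at a mean of 8.95. LG_eTreg thus lay between the other subsets for both genes.
Bcl6, the master factor of follicular cells, was not called, at 7.87, 8.17 and 7.97 against 7.98, 8.27 and 8.09 (0.11, adjusted p = 0.692). Cd40lg, which delivers help to B cells through CD40, fell from 5.54, 4.48 and 4.80 to 2.22, 2.76 and 3.10 (-2.24, SE 0.30), and lay below LG_eTconv by 2.12 on the log2 scale (adjusted p = 0.0041). Pou2af1 fell by 0.49, and this call ended without any 1 of LG_naïve 1, LG_naïve 2, LG_eTreg 1, LG_eTreg 2, LG_eTreg 3 or LG_eTconv 3 (adjusted p of 0.051 to 0.083).

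T helper 2 and 17 genes were dim. Of 11 measured 5 rose and 0 fell (median 0.73, or 0.00 with values at the background limit). Ccr4, a receptor of skin and regulatory homing, rose at least 2.14-fold to 2.40, 2.62 and 2.59, and was at least 2.29-fold higher than in LG_eTconv, where all arrays were below background (adjusted p = 0.00018). Ccr6 rose by 0.74, from 2.06, 2.07 and 2.17 to 2.73, 2.97 and 2.81, and lay below LG_eTconv by 1.35 on the log2 scale. Il17a was called (0.76) but lay below background on all 6 arrays, so no fold is given, and its call ended without LG_naïve 1, LG_naïve 2, LG_naïve 3, LG_eTreg 1 or LG_eTreg 3.

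Cytokine genes showed which products set the effector subsets apart. Of 23 secreted cytokines and chemokines 10 rose, 1 fell and 12 did not pass (median 0.76, or 0.44 at the background limit), and against LG_eTconv 3 were higher and 9 lower. Il2, which encodes a growth factor of T cells, was at 1.34, 0.69 and 2.40 in LG_naïve and 1.59, 1.87 and 0.93 in LG_eTreg (-0.01, adjusted p = 0.994), while LG_eTconv had a mean of 6.53. LG_eTreg lay below LG_eTconv by 5.07 (adjusted p = 0.00016). Il16, a CD4 ligand, was the member that fell (-0.54), a call that ended without LG_naïve 1, LG_naïve 3, LG_eTreg 2 or LG_eTreg 3.

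Receptors for chemoattractants changed in both directions. Of 19 measured 8 rose, 3 fell and 8 did not pass (median 0.10), the risers being led by Ccr8, Cxcr6 and Cxcr3. The fallers were receptors of recirculation and positioning. S1pr1, the sphingosine-1-phosphate receptor by which T cells leave lymphoid tissue, went from 6.37, 6.11 and 6.38 to 3.31, 2.78 and 3.39 (-3.12, SE 0.17, adjusted p = 1.37e-05) and lay below LG_eTconv by 0.90 (adjusted p = 0.019). Gpr183, the oxysterol receptor of follicle positioning, went from 8.06, 7.45 and 7.95 to 4.23, 4.28 and 5.54. Ccr9, a gut-homing receptor also carried by plasmacytoid dendritic cells, went from 6.30, 6.49 and 6.83 to 0.92, 1.61 and 1.18 (-5.30, SE 0.21). S1pr4, a related receptor, was not called (0.00, adjusted p = 0.994).

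Adhesion genes split in a like way, with 8 of 21 higher and 6 lower (median 0.16). Alcam, a ligand of CD6, went from 5.19, 4.69 and 4.23 to 7.22, 7.30 and 7.14, and Itgav, an integrin chain that frees active TGF-β, rose by 1.04 (SE 0.09). Pecam1, which endothelium and naïve lymphocytes carry, fell by 3.01 (SE 0.34), Itgb3, an integrin β chain, by 2.58, and Cdh1, E-cadherin itself, by 2.77. Cdh1 also had the widest fall among the gland epithelium markers below, and Pecam1 among the fibroblast, endothelium and erythrocyte markers. The part of such cells in these falls was not tested. Itga4 and Selplg were not called (0.16 and -0.15). Itga4 passed as higher with the mean of all its probe sets and with every probe set tested (adjusted p as low as 0.0016, limma).

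Of 17 lectin, galectin and S100 genes, among them calcium-binding proteins of motile cells, 12 rose, 0 fell and 5 did not pass (median 0.96). S100a4 went from 5.98, 6.84 and 7.01 to 10.20, 10.20 and 10.22 (3.60, SE 0.24), and S100a6 from 4.27, 4.61 and 4.85 to 8.61, 8.39 and 8.89. Anxa2, a membrane-binding partner of S100a10, rose by 3.28. These 3 genes were not called against LG_eTconv (adjusted p = 0.73, 0.28 and 0.94).
Of 20 protease and inhibitor genes 9 rose, 1 fell and 10 did not pass (median 0.62). Mmp9, a gelatinase that degrades basement membrane, was below background in LG_naïve and at 3.90, 3.69 and 4.23 in LG_eTreg, at least 5.65-fold higher, and at least 6.07-fold higher than LG_eTconv, where it was also below background on all arrays (adjusted p = 8.5e-06). Adam19, a membrane metalloprotease, rose by 1.90 and lay 1.70 above LG_eTconv. Cst7, the inhibitor cystatin F, rose by 4.56 (SE 0.20) and Spock2, a matrix proteoglycan, by 4.34 (SE 0.36), without a call against LG_eTconv. Ctsl, a lysosomal cathepsin, fell from 6.89, 6.02 and 6.27 to 2.40, 4.11 and 3.08.

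TNF family receptors rose where they are known on activated regulatory cells. Of 13 measured 5 rose, 3 fell and 5 did not pass (median 0.33). Tnfrsf9, the costimulatory receptor 4-1BB, was at 2.91, 3.74 and 4.02 in LG_naïve and 8.95, 9.01 and 8.64 in LG_eTreg (5.31, SE 0.27, adjusted p = 8.74e-06), although its 3 probe sets ranged from -0.12 to 5.31. Tnfrsf4, which encodes OX40, went from 5.06, 4.96 and 4.74 to 9.31, 8.99 and 9.38, and was not called against LG_eTconv (0.23, adjusted p = 0.51). Tnfrsf1b, TNF receptor 2, rose by 2.48 and Tnfrsf18, which encodes GITR, by 2.11, and both were higher than in LG_eTconv, by 0.79 and 1.04.
The receptors that fell carry death domains. Tnfrsf1a fell by 1.11 (SE 0.16) and Tnfrsf25, the death receptor 3, by 1.32 (SE 0.21), from 5.48, 5.47 and 5.57 to 4.66, 3.82 and 4.09. Tnfrsf10b fell by 1.97, a call that ended without LG_eTreg 1, LG_naïve 2, LG_naïve 3 or LG_eTreg 3 and with values at the background limit (adjusted p = 0.261).
Of 13 TNF ligands 4 rose and 1 fell (median 0.16), and against LG_eTconv 0 were higher and 10 lower. Tnfsf11, which encodes RANKL, rose by 2.03 (SE 0.26) to 6.42, 7.04 and 6.66, against a mean of 8.52 in LG_eTconv. Tnfsf9, the ligand of 4-1BB, rose by 1.92 (SE 0.21) and Tnfsf10, which encodes TRAIL, by 1.44 (SE 0.13). LG_eTreg thus held a ligand and its receptor, Tnfsf9 and Tnfrsf9, both above LG_naïve.

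The NF-κB pathway, downstream of those receptors, moved less. Of 18 measured genes 5 rose and 1 fell (median 0.41), and 3 rose and 0 fell without LG_eTreg 1, without LG_eTreg 2 or without LG_naïve 3. Rel, the c-Rel subunit that opens the Foxp3 locus, went from 5.48, 6.23 and 6.06 to 7.14, 7.48 and 6.82 (1.22, SE 0.23, adjusted p = 0.00983). Nfkbid, an atypical inhibitor protein, rose by 1.04 (SE 0.19), Traf1, an adaptor of TNF receptors, by 0.73 (SE 0.10). Birc3 and Tnip1 were not called (-0.01 and -0.05).
The letters GGG, any 2 bases, then TTCCC, a form of the NF-κB site, were searched on both strands in the 250 bases before the start of each gene in RefSeq (GRCm38.p6). They occurred in 4 of 15 NF-κB genes with a promoter (26.7%: Nfkbid, Rel, Tnip1 and Nfkb2) and in 2 of 12 TNF receptor genes (16.7%: Tnfrsf9 and Tnfrsf13b), against 1.75% of 27025 genes. Of these, Nfkbid, Rel and Tnfrsf9 were called, and Tnip1, Nfkb2 and Tnfrsf13b (-0.08) were not. The matches of the called receptor and the called subunit are shown with the matched bases in capitals, 5′ to 3′ on the gene's own strand, for Tnfrsf9 at chr4:150927947-150927976 (plus strand) and Rel at chr11:23771042-23771071 (minus strand, where the match is the reverse complement). Tnfrsf9 has 2 promoter windows listed, of which 1 is shown. A match is a description of letters, not a measured site.
Tnfrsf9: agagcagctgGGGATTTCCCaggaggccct
Rel: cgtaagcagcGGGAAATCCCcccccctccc

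Inhibitory receptors mostly rose. Of 13 measured 8 rose, 2 fell and 3 did not pass (median 0.76). Lag3, which binds MHC class II, went from 3.11, 2.65 and 3.06 to 6.70, 6.75 and 7.48 (4.04, SE 0.24), and was not called against LG_eTconv (0.28, adjusted p = 0.68). Lilrb4a, an inhibitory receptor better known on myeloid cells, was at 3.74, 5.12 and 5.29 against 7.69, 8.22 and 7.77 and exceeded LG_eTconv by 4.68 (adjusted p = 0.00064). Lair1, a collagen receptor, fell from 6.94, 7.29 and 7.10 to 2.52, 2.27 and 1.18 (-5.12, SE 0.32).

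Genes of the antigen receptor and its signals changed in part. Of 26 genes of the receptor complex and proximal signalling 8 rose, 5 fell and 13 did not pass (median 0.09). Ubash3b, a phosphatase that tempers receptor signals, rose by 2.01 (SE 0.18). Themis, an adaptor of thymocyte signalling, fell from 7.77, 8.14 and 7.95 to 5.34, 5.48 and 5.31 (-2.58, SE 0.12), and lay below LG_eTconv by 1.69 (adjusted p = 8.5e-05). Prkcq, protein kinase C θ, fell by 1.40 and lay below LG_eTconv by 0.80, and Txk, a Tec family kinase, fell by 2.56. Cd247 and Ptprc, the ζ chain and CD45, were not called (-0.16 and -0.04).
Immediate early genes respond to recent receptor signals, and most were not called, with 4 of 24 higher and 1 lower (median 0.06). Dusp4, a phosphatase of MAP kinases, went from 4.40, 3.58 and 4.44 to 8.23, 8.59 and 8.72 (4.37, SE 0.26), and Nr4a2, an orphan nuclear receptor, rose by 1.63 (SE 0.14). Egr1 was at 9.56, 9.65 and 9.45 against 9.49, 9.60 and 9.46, and Egr2 differed by 0.04, while Jun fell by 0.84 (SE 0.14). Myc was not called (-0.68, adjusted p = 0.13), and passed without LG_naïve 2.

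Of 30 cytokine receptor, JAK, STAT and SOCS genes 7 rose and 3 fell (median 0.08). The risers were Il2ra, Il2rb, Il10ra, Cish, Socs2, Ifnar2 (0.76) and Tyk2 (0.72), the last pair named after their values were seen. Cish, a target and inhibitor of STAT5, went from 4.51, 3.68 and 4.19 to 7.04, 7.36 and 7.35 (3.12, SE 0.20) and lay 1.03 above LG_eTconv (adjusted p = 0.022). Socs2, also a STAT5 target, rose by 3.44 (SE 0.36). Il10ra, the interleukin 10 receptor chain, went from 2.23, 2.24 and 3.15 to 5.27, 5.18 and 5.06 and lay 1.82 above LG_eTconv. LG_eTreg thus had more transcript of Il10 and of its receptor chain than both other subsets. Il6ra, the interleukin 6 receptor, fell by 1.58 (SE 0.26), Pim2, a survival kinase, by 1.57, and Ifngr2, a chain of the interferon gamma receptor, by 1.44. Stat3 was not called (-0.01).

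TGF-β pathway genes moved in opposing directions, with 4 of 19 higher and 5 lower (median -0.15, or 0.00 at the background limit). Tgfbr1, the signalling receptor, rose by 1.09 (SE 0.15), and Smad3, its effector, by 0.75 (SE 0.14), from 7.81, 7.89 and 7.88 to 8.63, 8.48 and 8.72. Both calls ended with the mean of all probe sets (adjusted p = 0.0569 and 0.0617). Tgfbr3, the co-receptor betaglycan, fell from 8.03, 8.28 and 8.38 to 4.41, 4.92 and 4.81 (-3.52, SE 0.16, adjusted p = 5.3e-06) and lay below LG_eTconv by 3.06. Rgcc, a TGF-β-induced cell cycle regulator, fell by 1.56, and Smurf1, a ubiquitin ligase of Smad proteins, by 1.33.

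Among 17 anergy and ubiquitin ligase genes 5 rose and 4 fell (median 0.05). Rnf128, the ligase GRAIL, rose by 1.74 (SE 0.15) and was higher still in LG_eTconv, by 2.10 on the log2 scale. Dtx1, a Notch-regulated ligase, fell from 6.17, 6.12 and 6.28 to 2.85, 2.14 and 2.76. Nedd4l fell at least 18.9-fold on its brightest probe set, to below background on all LG_eTreg arrays. The Nedd4l difference was as small as -1.44 over the settings tried. Itch was not called (-0.01, adjusted p = 0.988).

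Genes of cell division were higher in LG_eTreg, at modest levels. Of 25 mitosis genes 15 rose and 0 fell (median 1.53, or 0.78 with values at the background limit, where 9 rose). Mki67, which encodes the Ki-67 antigen of dividing cells, was at 0.92, 2.72 and 1.93 in LG_naïve and 5.29, 6.41 and 6.69 in LG_eTreg (4.27, SE 0.62, adjusted p = 0.00258). Birc5, which encodes survivin, went from 1.96, 0.92 and 0.53 to 4.97, 4.86 and 5.55 (3.99, SE 0.39), and Nusap1, a spindle protein, rose at least 8.31-fold. Top2a, the topoisomerase that untangles replicated DNA, rose by 2.91 (SE 0.30), from 2.41, 1.88 and 1.61 to 4.67, 4.97 and 4.99. The Nusap1 and Top2a calls held in all settings tried, with differences as low as 1.82 and 1.01. Cdc20 and Kif20a were not called (-0.38 and 0.62), and Kif20a passed without LG_naïve 1 and LG_eTreg 3 together (adjusted p = 0.0276, limma). Against LG_eTconv 0 of the 25 were called in either direction, with a median of 0.27.

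Of 25 S phase genes 9 rose and 0 fell (median 0.37), and 5 rose without LG_naïve 3. Tk1, thymidine kinase, went from 1.92, 1.41 and 1.34 to 4.66, 3.75 and 4.30 (2.68, SE 0.25), and Tyms, thymidylate synthase, and Rrm2, a subunit of ribonucleotide reductase, rose by 2.90 and 2.34. The Tyms and Rrm2 differences were as low as 0.76 and 1.32 over the settings tried, and both calls held. Tk1 was higher than in LG_eTconv (1.10, adjusted p = 0.04). Mcm4 and Prim1 were not called (0.00 and -0.04).
Regulators of cell cycle entry split, with 5 of 17 higher and 3 lower (median 0.01), or 4 and 1 without LG_naïve 2 or without LG_naïve 3. Cdk6, a kinase of G1, rose by 2.66 (SE 0.33). Cdkn1a, the inhibitor p21, was at 5.36, 5.36 and 5.54 in LG_naïve, at a mean of 5.27 in LG_eTconv and at 8.03, 8.16 and 7.80 in LG_eTreg (2.58, SE 0.14; 2.72 over LG_eTconv, adjusted p = 1.3e-05). LG_eTreg thus had more transcript of this inhibitor than both other gland subsets. Cdkn2d, an inhibitor of Cdk4 and Cdk6, fell by 1.65 (SE 0.20), and Cdkn1b was not called (0.01).

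Promoters of mitosis genes are known for the CCAAT box and for the cell cycle homology region, searched here as CCAAT and TTTGAA on both strands in the same 250 bases. CCAAT occurred in 18 of 21 mitosis genes with a promoter (85.7%), against 37.5% of all genes, and in 9 of the 12 called higher. TTTGAA occurred in 10 of 21 (47.6%), against 18.3% of all, and in 7 of the 12. The windows of 2 called genes are printed with all matches in capitals on the gene's own strand, because both letter groups recur in them: Mki67 at chr7:135716462-135716577 and Top2a at chr11:99024197-99024426 (both minus strand, GRCm38.p6). ATTGG and TTCAAA are the reverse complements.
Mki67: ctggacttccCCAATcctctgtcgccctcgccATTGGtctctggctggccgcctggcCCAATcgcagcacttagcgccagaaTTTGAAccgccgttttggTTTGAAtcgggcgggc
Top2a: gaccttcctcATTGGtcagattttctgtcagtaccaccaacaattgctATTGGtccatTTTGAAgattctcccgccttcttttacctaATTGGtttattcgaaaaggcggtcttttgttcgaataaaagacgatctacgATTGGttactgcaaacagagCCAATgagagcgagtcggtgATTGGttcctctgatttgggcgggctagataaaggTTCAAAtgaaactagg

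Survival genes changed in both directions. Of 19 measured 6 rose, 3 fell and 10 did not pass (median 0.12). Bcl2, the main survival protein of resting T cells, was at 7.02, 7.11 and 7.05 in LG_naïve, at a mean of 7.56 in LG_eTconv and at 5.34, 3.67 and 3.88 in LG_eTreg (-2.76, SE 0.38, adjusted p = 0.00179; -3.27 against LG_eTconv, adjusted p = 0.0013). Its relative Bcl2l1, which encodes Bcl-xL, rose from 4.04, 3.94 and 4.05 to 5.18, 5.05 and 5.39 (1.20, SE 0.11). Casp4, an inflammatory caspase, rose by 2.98, Pmaip1, which encodes the death-promoting Noxa, by 1.53, and Gadd45b, a stress response gene, by 1.61. Bcl2l11, which encodes Bim, fell by 0.69, but this call ended with the mean of its probe sets (adjusted p = 0.296) and without any 1 of LG_eTconv 1, LG_naïve 1, LG_eTreg 1, LG_naïve 2, LG_naïve 3 or LG_eTreg 3. Bbc3, which encodes Puma, was not called, at 2.12, 2.12 and 1.91 against 1.99, 1.96 and 2.10.
The Gimap family, small GTPases of lymphocyte survival, gave 1 of 8 higher and 2 lower (median 0.06). Gimap7 went from 7.01, 6.76 and 7.20 to 8.70, 8.66 and 8.52, and lay 1.44 above LG_eTconv (adjusted p = 0.0017). Gimap6 fell by 1.12 (SE 0.19) and Gimap3 was not called (0.02).

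Among metabolic genes, single members had large differences while list medians were small. Of 18 glycolysis and hypoxia genes 7 rose and 1 fell (median 0.48). With 1 array left out at a time 4 to 6 rose and 1 fell, the 4 without LG_eTreg 2 or without LG_naïve 3. Slc16a3, the lactate exporter MCT4, went from 1.74, 1.12 and 1.28 to 4.98, 4.73 and 5.15 (3.57, SE 0.38), and Egln3, an oxygen-sensing prolyl hydroxylase, rose by 2.99 (SE 0.33). Tpi1, a glycolytic enzyme, rose by 2.02, while Slc2a1, the glucose transporter GLUT1, was not called, at 8.87, 8.95 and 8.78 against 8.84, 8.98 and 8.90.
Among 17 amino acid genes 4 rose and 2 fell (median 0.09). Bcat1, the cytosolic branched-chain aminotransferase, went from 0.72, 1.17 and 1.73 to 6.15, 5.90 and 5.43 (4.62, SE 0.26), below a mean of 7.56 in LG_eTconv (adjusted p = 0.0057). Its mitochondrial counterpart Bcat2 fell by 1.02 (SE 0.16), and Slc7a5, the leucine transporter chain, by 0.87 (SE 0.15). The forms of the enzyme thus moved in opposite directions.
Cholesterol and fatty acid synthesis gave 1 of 18 higher and 1 lower (median -0.12), against 11.7% of all genes called. Both calls, Fdft1 (1.12) and Mvk (-0.98), ended without LG_naïve 1 or LG_naïve 3, which left 0, the Mvk call also ended without LG_eTreg 1 or LG_eTreg 2, and the Fdft1 call without LG_eTconv 1, LG_eTconv 2, LG_naïve 2, LG_eTreg 2 or LG_eTreg 3. Of 14 purine genes 1 rose, Entpd1, and 3 fell. Nt5e, a gate gene whose probe sets disagreed, was outside this list and was higher in LG_eTreg by 3.42. Pde3b, which degrades cyclic AMP, fell from 8.43, 8.77 and 8.77 to 4.46, 5.44 and 3.84 (-4.08, SE 0.38), and P2ry14, a receptor for UDP-glucose, fell at least 12.1-fold. Of 20 genes of the unfolded protein response 1 rose and 2 fell, and these counts moved to between 0 and 1 in each direction without LG_naïve 1, LG_eTreg 1, LG_naïve 2, LG_naïve 3 or LG_eTreg 3. The member that rose was Atf6 (2.07), a call that ended in 7 of 21 settings.

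Type I interferon response genes gave a pattern that depended on the reference. Against LG_naïve 8 of 21 rose and 0 fell (median 0.35). With 1 array left out at a time 5 to 7 rose, the 5 without LG_naïve 2. Against LG_eTconv 16 of the 21 were higher and 0 lower, with a median of 1.14. Mx1, a GTPase that blocks viral replication, was at 5.10, 4.65 and 5.54 in LG_naïve, a mean of 5.84 in LG_eTconv and 7.62, 7.50 and 7.64 in LG_eTreg (2.49, SE 0.21, adjusted p = 0.000119). Rsad2, the antiviral enzyme viperin, went from 6.27, 7.20 and 7.01 to 8.55, 8.69 and 8.60 (1.79, SE 0.24) and lay 1.37 above LG_eTconv. Ifit3, which binds with Ifit1 to foreign RNA, went from 6.64, 6.33 and 6.43 to 7.90, 7.93 and 8.43 (1.61, SE 0.17) and lay 2.37 above LG_eTconv (adjusted p = 8.9e-05). Ifit1 rose by 0.97 (SE 0.16). Irf9 and Oasl2 were not called in either comparison (0.04 and -0.06 against LG_naïve). Mx2 rose by 0.94, a call that ended without LG_naïve 1, LG_naïve 2, LG_eTreg 1 or LG_eTreg 2 and at the background limit (adjusted p = 0.0643).

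**Figure D3:**
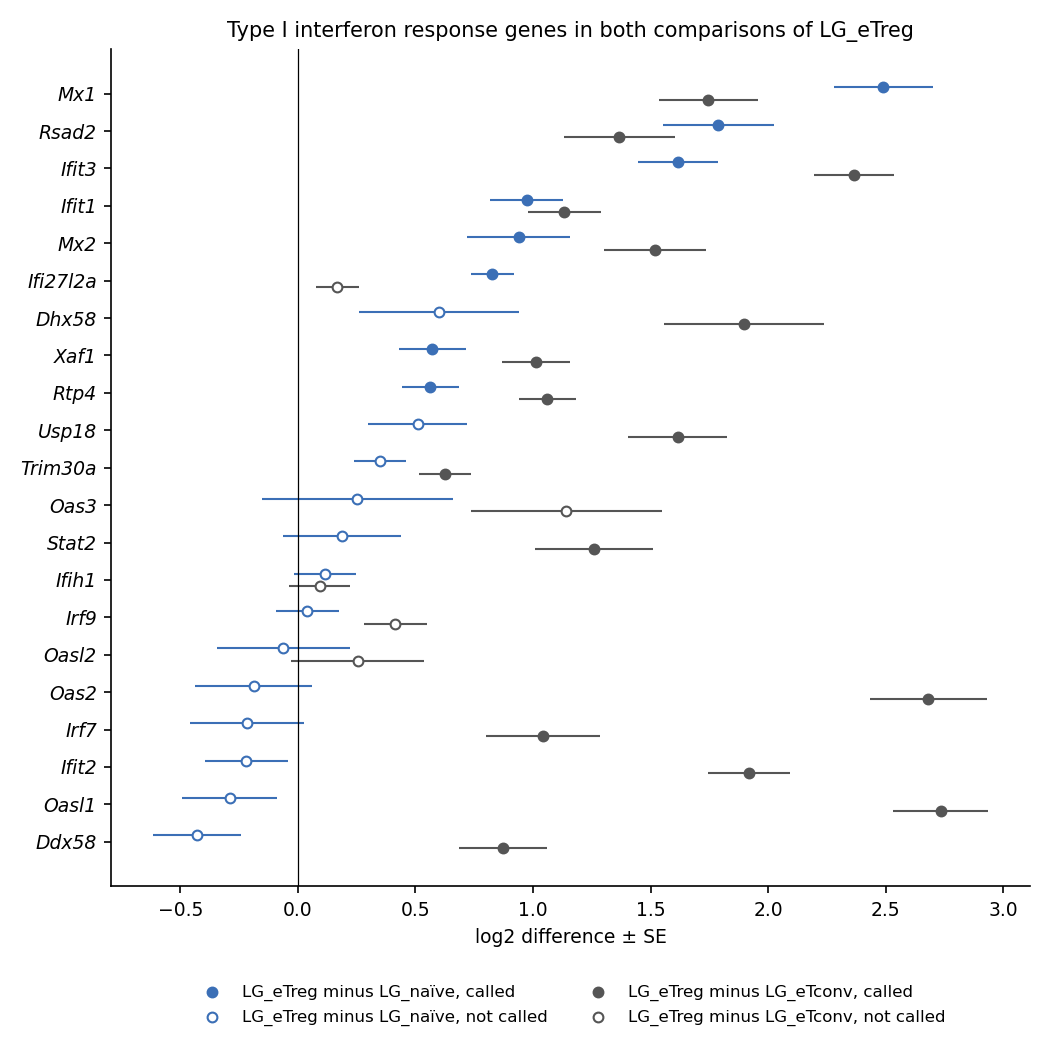
Log2 difference ± SE of 21 type I interferon response genes, LG_eTreg minus LG_naïve in blue and LG_eTreg minus LG_eTconv in dark grey, with filled points for called genes. Against LG_naïve 8 are called, led by Mx1 at 2.49, and against LG_eTconv 16 are called, all of them higher in LG_eTreg.

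The interferon-stimulated response element was searched as TTTC, any 2 bases, then TTTC, on both strands of the 250 bases before the start. It occurred in 6 of 14 interferon genes with a promoter in the table (42.9%: Oas3, Trim30a, Stat2, Rsad2, Ifit3 and Ifit1), against 3.46% of all 27025 genes. Of the genes called higher than in LG_naïve 4 had a promoter, and 3 of these held it. Oas3, Trim30a and Stat2 are named after their values were seen, as is Nfkb2 above. Their windows are shown because the matches are single in Rsad2 and paired in both Ifit genes: Rsad2 at chr12:26456553-26456582 (minus strand), Ifit3 at chr19:34583363-34583426 and Ifit1 at chr19:34640775-34640823 (both plus strand, GRCm38.p6), with the match in capitals.
Rsad2: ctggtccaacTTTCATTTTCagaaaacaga
Ifit3: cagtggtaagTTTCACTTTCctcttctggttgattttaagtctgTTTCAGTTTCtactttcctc
Ifit1: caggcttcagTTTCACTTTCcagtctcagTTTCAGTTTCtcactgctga

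Interferon gamma response genes, in contrast to Ifng itself, were mostly not called, with 1 of 18 higher and 4 lower (median -0.18). The called share was 27.8%, against 11.7% of all genes, and 5.47% of all genes were called lower. With 1 array left out at a time, 3 to 4 were lower. Gbp3, a guanylate-binding protein of host defence, rose from 6.46, 6.39 and 6.39 to 7.24, 7.87 and 7.54 (1.14, SE 0.17). Its relative Gbp2 fell by 1.09 (SE 0.22), from 7.49, 8.12 and 7.80 to 6.67, 6.89 and 6.57, and Irf8, an interferon regulatory factor, fell by 1.03 (SE 0.13). Irf8 lay 1.71 above LG_eTconv (adjusted p = 0.0001). Iigp1 and Tapbp were not called (0.01 and -0.04).

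Genes of the naïve state were lower in LG_eTreg. Of 14 naïve transcription factors 0 rose, 9 fell and 5 did not pass (median -1.05), and of 15 surface and recirculation genes 0 rose, 11 fell and 4 did not pass (median -2.93). Bach2, a repressor that keeps T cells from effector differentiation, was at 8.33, 8.34 and 8.32 in LG_naïve and 4.82, 4.79 and 3.44 in LG_eTreg (-3.98, SE 0.33, adjusted p = 0.000105). It remained high in LG_eTconv (mean 7.48), 3.13 above LG_eTreg on the log2 scale (adjusted p = 0.00073). Klf2, the quiescence factor that drives S1pr1, went from 7.64, 7.06 and 7.47 to 3.37, 4.04 and 4.45 (-3.44, SE 0.42). Lef1, a nuclear partner of β-catenin, went from 3.93, 3.72 and 4.58 to 0.50, 1.0 and 0.91, with 1 of 3 LG_eTreg arrays above background. Sox4, which acts beside them, fell at least 13.4-fold on its brightest probe set. Its difference lay between -4.94 and -1.52 over the settings tried. Klf2, Lef1 and Sox4 were not called against LG_eTconv (adjusted p = 0.95, 0.80 and 0.93), which does not show that their levels are equal. Ets1 and Bcl11b, factors of T cell identity, were not called (0.09 and -0.07). Bcl11b passed as lower with the mean of all its probe sets and with every probe set tested (adjusted p as low as 0.0054, limma).

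Tdrp went from 7.99, 8.03 and 8.20 to 1.52, 2.56 and 2.44 (-5.90, SE 0.31) and was intermediate in LG_eTconv, 3.15 above LG_eTreg on the log2 scale. Igfbp4, a binding protein of insulin-like growth factors, went from 7.82, 7.62 and 7.65 to 2.74, 2.21 and 3.16 (-4.99, SE 0.23), Actn1, an actin crosslinker, fell by 3.50 and Treml2, a costimulatory receptor, by 3.84. Igfbp4 has 6 probe sets, from -7.45 to -0.76. Of 106 named called genes with several probe sets, 14 had probe sets that differed in sign. Il6st, the signalling chain gp130, was not called (-0.31).
Other large falls had no place in these lists. Pdlim4, a cytoskeletal adaptor, went from 6.87, 6.06 and 6.57 to 1.06, 0.43 and 0.54, at least 38.9-fold lower, and Mctp2, a membrane protein with C2 domains, from 7.22, 7.33 and 7.09 to 1.69, 1.32 and 1.57 (-5.69, SE 0.13, adjusted p = 3.33e-07). D13Ertd608e fell at least 40.0-fold, Amigo2, an adhesion protein, by 5.09 and Lifr, the receptor of leukaemia inhibitory factor, by 4.67. Xkrx, Als2cl, Pdzd4 and Tbc1d8 fell by 4.48, 4.67, 4.28 and 4.23, and Sh3bgr at least 10.2-fold on its brightest probe set. The Sh3bgr difference was as small as -1.44 over the settings tried. Xkrx, Als2cl, Pdzd4, Tbc1d8, Sh3bgr and Pdlim4 were not called against LG_eTconv.

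**Figure D4:**
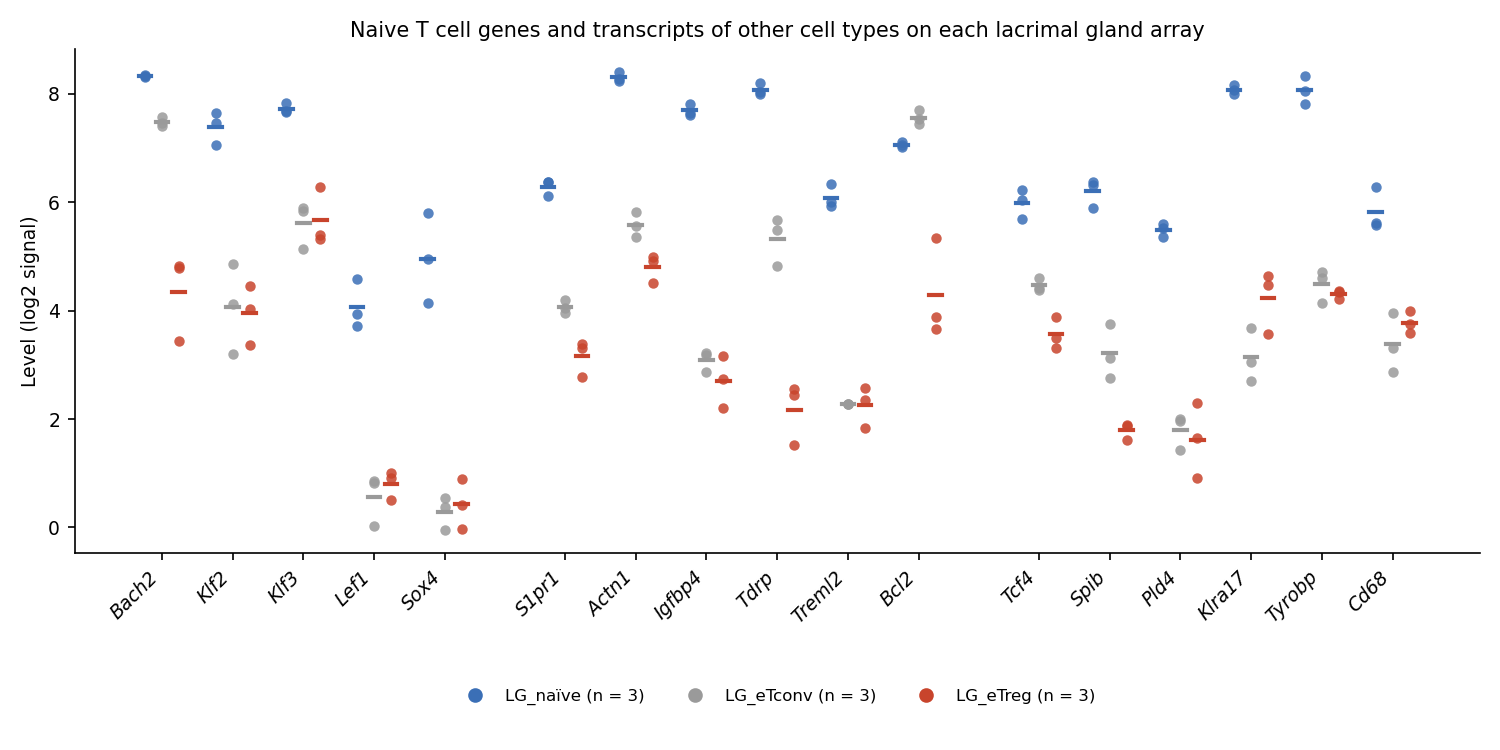
Log2 signal of naïve-state genes and of transcripts of other cell types on each gland array; each point is 1 array of LG_naïve, LG_eTconv or LG_eTreg and bars are group means. LG_naïve lies above LG_eTreg for each gene shown, and Bach2 has a mean of 7.48 in LG_eTconv against 3.44 to 4.82 in LG_eTreg.

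Transcripts of other cell types moved with the genes that fell. Of 15 dendritic and plasmacytoid dendritic cell markers 13 were lower in LG_eTreg and 1 higher (median -2.25), with a summed log2 level of 78.4 to 82.0 on the LG_naïve arrays and 44.6 to 51.4 on the LG_eTreg arrays. Spib, a transcription factor of plasmacytoid dendritic and B cells, went from 6.38, 5.90 and 6.33 to 1.90, 1.61 and 1.87 (-4.41, SE 0.25), Klra17 from 8.16, 8.08 and 7.99 to 3.57, 4.64 and 4.47, and Pld4, an endolysosomal exonuclease, from 5.52, 5.37 and 5.60 to 0.90, 1.65 and 2.29. Tcf4, the factor that specifies plasmacytoid dendritic cells, fell by 2.43. The member that rose was Zbtb46 (1.27, adjusted p = 0.0341, limma), a call that ended in 10 of 21 settings. The conventional dendritic cell receptor Xcr1 was below background on all 6 arrays.
Of 16 monocyte and macrophage markers 6 fell and 0 rose (summed level 52.1 to 60.6 against 38.6 to 39.0). Tyrobp, a signalling adaptor of myeloid and natural killer cells, went from 7.81, 8.06 and 8.33 to 4.35, 4.22 and 4.36 (-3.75, SE 0.18, adjusted p = 6.48e-06). Cd68 fell by 2.05, Lyz2 by 1.41 and Cd14 by 1.42, whereas Csf1r and Itgam were below background in both groups.
Ccr9, Lair1, Bcl11a (-4.21), Plaur (-4.51), Cd177 (at least 11.4-fold lower) and Gpr183 are known in myeloid or plasmacytoid cells as well as in lymphocytes, and they fell with these lists. The part of such cells in the lower genes was not tested.

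Of 11 B cell and plasma cell markers 4 fell (26.6 to 31.0 against 18.04 to 24.1). With 1 array left out at a time 1 to 3 fell, among them 2 without LG_naïve 2, 1 without LG_naïve 3 and 2 without LG_eTreg 3. Jchain, the joining chain of secreted antibody, went from 7.98, 7.90 and 8.32 to 5.93, 7.03 and 6.47, a call that ended without LG_naïve 3, whereas Ighm and Pax5 were below background in both groups. Of 10 CD8 T and natural killer cell markers 1 fell, Klrd1 (-3.56, SE 0.47), and 1 rose, Klrc1 (at least 1.58-fold), whose call ended without LG_eTreg 2 or LG_naïve 3 (19.0 to 19.4 against 14.03 to 15.9). Cd8a was not called (0.25), and Klra8, Klrc2, Klrk1 and Ncr1 were below background in both groups.
Lacrimal gland epithelium gave 5 of 20 lower and 1 higher (median -0.36, 58.0 to 68.3 against 47.1 to 52.9), with Cftr, Cldn3, Cldn4, Elf3, Krt19 and Prol1 below background in both groups. The counts were 2 lower and 1 higher without LG_eTreg 1 or LG_naïve 3, 2 lower and 0 higher without LG_naïve 2 or LG_eTreg 3, and 3 lower and 0 higher without LG_eTreg 2. Muc1 was the member that rose (0.93), a call that ended in 8 of 21 settings, and Cdh1 had the widest fall (-2.77). Fibroblast, endothelium and erythrocyte markers gave 3 of 15 lower (21.3 to 32.1 against 14.5 to 18.5), or 5 without LG_naïve 1, with Alas2, Col1a2, Lyve1 and Pdgfra below background in both groups. The part of these cells in any result was likewise not tested.

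Single arrays carried secretory transcripts of gland tissue. Amy1, a salivary-type amylase, was at 6.87 on LG_naïve 2 and at -0.17 and -0.18 on the other LG_naïve arrays, Cst10 at 6.01 against 1.52 and 0.01, and Bpifa2 at 7.87 against 2.04 and 0.38. On LG_eTreg 2, Dcpp3 was at 8.30 against 1.12 and 1.02, and Dcpp1 at 6.21 against 0.90 and 0.41. None of these passed (adjusted p = 0.546, 0.43, 0.815, 0.545 and 0.471), and they were among the genes with the largest SD between arrays of 1 group.

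Few genes of general cell function were called. Of 66 cytosolic ribosomal proteins 1 rose and 3 fell (6.06%, median -0.23), of 76 respiratory chain subunits 1 rose and 1 fell (2.63%, median 0.07), and of 71 mitochondrial ribosomal proteins 3 rose and 2 fell (7.04%, median 0.04), against 11.7% of all genes. The ribosomal count was sensitive, with 12 lower without LG_eTreg 3, between 0 and 2 lower without LG_naïve 1, LG_naïve 2, LG_naïve 3, LG_eTreg 1, LG_eTreg 2 or LG_eTconv 3, and 21 lower with an intensity trend in the fit. The respiratory count was 0 higher and 1 lower without any 1 of LG_naïve 1, LG_naïve 2, LG_naïve 3, LG_eTreg 1, LG_eTconv 2 or LG_eTconv 3. The mitochondrial ribosomal count was between 1 and 2 in each direction without LG_eTreg 1, LG_eTreg 2, LG_eTreg 3, LG_naïve 2 or LG_naïve 3. Rps23 and Rps25 were not called (0.01 and -0.00), Cox6a2, a respiratory subunit of muscle, fell by 2.25 (SE 0.23), and Mrps6 rose by 1.73 (SE 0.24). Rps27l was the cytosolic ribosomal member that rose (0.80), a call that ended in 5 of 21 settings.

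**Figure D5:**
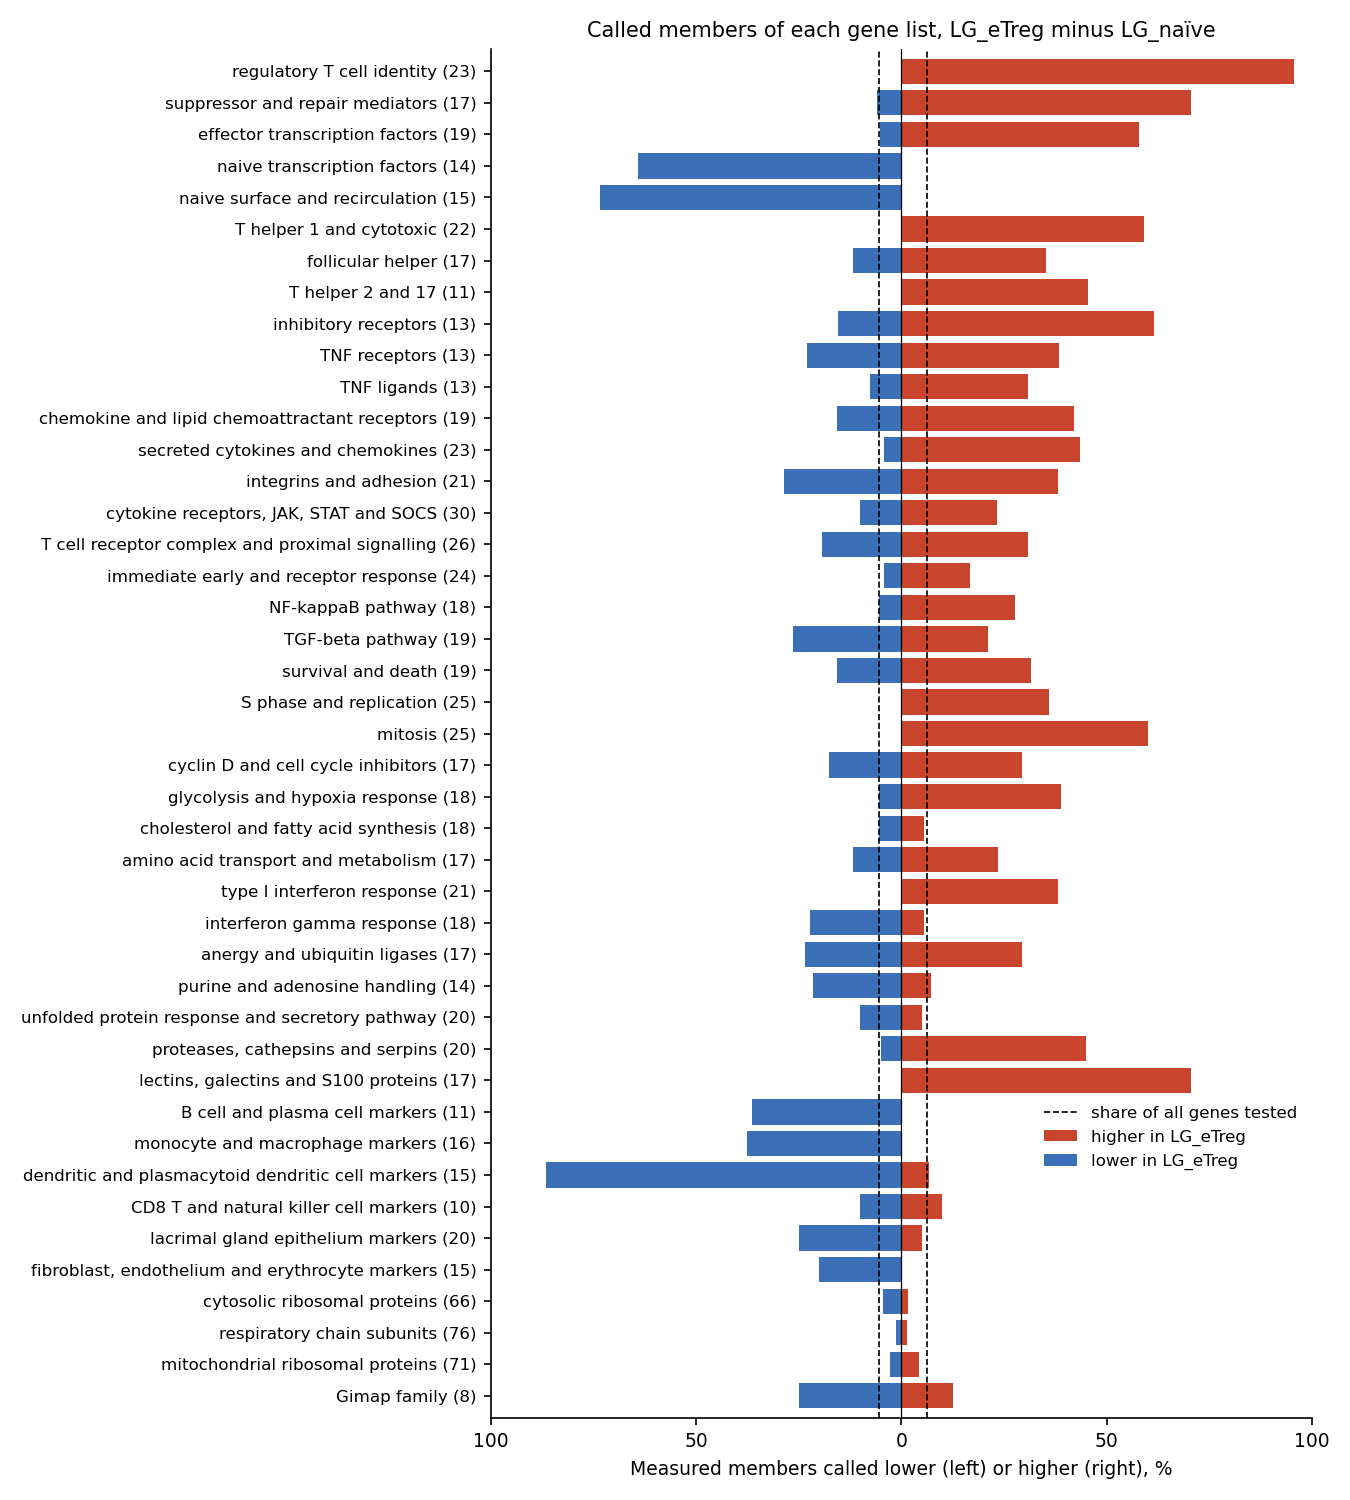
Share of the measured members of each gene list that were called higher (red, right) or lower (blue, left) in LG_eTreg than in LG_naïve, in percent, with the number of measured members in brackets and dashed lines at the shares of all genes tested, 6.2% higher and 5.47% lower. The longest bar to the right is regulatory identity (22 of 23) and the longest to the left is dendritic cell markers (13 of 15).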

How the data were processed

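RNA of sorted cells was amplified and hybridised to 11 arrays, of which 9 were gland arrays. Partek and RMA are the tools in the submitters' processing notes, without versions, and the table the authors deposited holds log2 values. The log base is inferred from RMA, not stated in the sources used here. Of 45141 probe sets 28898 carried 1 gene symbol in the platform annotation. The brightest probe set stood for each of 17097 genes. limma 3.58.1 in R 4.3.3 fitted the 3 gland groups of 3 arrays, with Benjamini-Hochberg adjustment and a threshold of 0.05. Python 3.11.15, numpy 2.4.6 and pandas 2.3.3 made the summaries. On simulated data for this comparison, 60% of 100 genes shifted by 1 and 90% of 100 shifted by 2 were recovered, with 7 false calls. No other gene was shifted, against 1995 called in the data, and the noise was independent between genes. These rates need not hold for the data. The number of arrays limits the precision. The genes named are the 20 with the widest rise and the 20 with the widest fall, at most 5 called genes a list by size of difference, members called against their list's majority, up to 2 detected members with the smallest difference, fixed and gate genes, and the 5 genes of largest SD in each group. Of 919 list genes 840 were measured, and the other 79 were not analysed here. The members and lists were chosen with earlier results of these data known. Promoters are RefSeq's, GRCm38.p6. Alternatives covered array sets, probe set choice, the background limit, normalisation, the limma settings and single arrays left out. List counts under them were compared after seeing the data.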

Additional observations from a re-analysis of the deposited data

Results flagged for a closer look

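In 5 named genes LG_eTreg and LG_eTconv were each called against LG_naïve in opposite directions, and the test of the difference itself, LG_eTreg minus LG_eTconv in limma, was also called. Both comparisons share the LG_naïve arrays. Gbp3 was higher than LG_naïve in LG_eTreg (1.14) and lower in LG_eTconv (-0.64), a gap of 1.79. Ifit3 differed by 1.61 and -0.75, a gap of 2.37, and Smad3 by 0.75 and -0.81, a gap of 1.56. Pou2af1 differed by -0.49 and 1.01, a gap of -1.49, and Tnfrsf25 by -1.32 and 1.02, a gap of -2.34. The call of LG_eTreg against LG_naïve ended in 10 of 21 settings for Pou2af1 and in 2 of 21 for Smad3. Gbp3, Ifit3 and Tnfrsf25 kept this call in all 21.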

How the results depend on the processing

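Of 230 named genes called, 175 kept their call in all 21 settings tried, 55 lost it in some and 1 reversed: Rpl13, at -0.38, was at 0.21 with the mean of all probe sets of a gene (adjusted p = 0.55, limma), and the cause was not tested. Asking also for an absolute log2 difference of at least 1 left 1288 called genes, 706 higher and 582 lower, because it adds a condition. Leaving out 1 array at a time gave 1512 to 1845 called genes, 812 to 977 higher and 700 to 898 lower, and against LG_eTconv 683 to 969. Same-numbered LG_eTreg and LG_naïve arrays did not deviate together (r = -0.0969, 0.137 and -0.0424), and same-numbered LG_eTreg and LG_eTconv arrays did so unevenly (r = 0.283, 0.0788 and 0.171). Differently numbered LG_eTreg and LG_eTconv arrays gave r of -0.23 to 0.0191, below each same-numbered pair of these groups. Not every same-numbered pair was above 0.1, so the numbers were not taken as pairs. The p-values against LG_eTconv thus come from a fit that ignores any such pairing. A replicate block gave 1929 calls, 1028 higher and 901 lower, and 906 against LG_eTconv. Values set to the background limit gave 1460 calls, and leaving out LG_naïve 1 and LG_eTreg 3, the arrays of highest 18S signal, gave 1679. Genes near background, 5260 of them below it in both groups, are those whose differences the signal limits.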
